A study of Mus musculus with 16 samples.

Results

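The genes of the activator protein 1 (AP-1) family were compared in mouse striatum: Fos, Fosb, Fosl1, Fosl2, Jun, Junb, Jund and Atf3, 8 of the 48795 genes in the deposited count table, taken by gene symbol. The family was chosen by the measured levels of its members against the wild-type tdTomato group, with results of the same libraries known. Values in those comparisons are therefore descriptions, and nothing is read from their calls. RNA was sequenced from whole striatum in 16 libraries, 4 mice per group. KO_hM4D mice were Sapap3 knockouts whose striatum was injected with an adeno-associated virus (AAV) carrying hM4Di, an inhibitory designer receptor that couples to Gi proteins, for expression in astrocytes. KO_tdT mice were Sapap3 knockouts given an AAV for tdTomato, a red fluorescent protein. WT_hM4D mice were wild type with the hM4Di virus, and WT_tdT mice were wild type with the tdTomato virus. All 4 groups were injected with virus and given DCZ (deschloroclozapine), the agonist of hM4Di, so that no group shows the receptor without its agonist or striatum without virus. Neither the promoter that drives each virus nor the age or sex of the mice is stated in the labels.

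AP-1 is a transcription factor that binds DNA as a dimer of basic leucine zipper (bZIP) proteins. Fos proteins need a Jun partner, whereas Jun proteins can also pair with each other, and the make-up of the dimer sets how strongly it activates. In striatal neurons Fos and Junb are immediate early genes, transcribed within minutes of calcium or cAMP signals through factors such as CREB and SRF that are already present, and Jund is expressed steadily. The family is widely used as a marker of recent neuronal activity.

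The promoter stretches of Fos, Junb, Atf3 and Jun are shown because Fos, Junb and Atf3 had the largest differences between groups and Jun, a partner of Fos, did not share them. Each runs 5′ to 3′ on the gene's own strand, from 120 bases before the RefSeq start site to 6 bases after it, and positions count from 1 at the first transcribed base. Capitals mark matches to the motifs searched on both strands. Fos lies at chr12:85473770-85473895 on the plus strand, Junb at chr8:84978743-84978868, Atf3 at chr1:191183328-191183453 and Jun at chr4:95052217-95052342, the last 3 on the minus strand (RefSeq on GRCm38.p6).
Fos: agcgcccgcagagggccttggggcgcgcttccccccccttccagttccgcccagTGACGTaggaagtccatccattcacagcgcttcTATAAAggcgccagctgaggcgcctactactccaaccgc
Junb: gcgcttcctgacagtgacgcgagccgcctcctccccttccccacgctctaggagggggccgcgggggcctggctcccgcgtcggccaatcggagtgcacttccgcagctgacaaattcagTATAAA
Atf3: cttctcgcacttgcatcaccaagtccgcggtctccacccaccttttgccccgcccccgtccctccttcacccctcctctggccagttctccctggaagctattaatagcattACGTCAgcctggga
Jun: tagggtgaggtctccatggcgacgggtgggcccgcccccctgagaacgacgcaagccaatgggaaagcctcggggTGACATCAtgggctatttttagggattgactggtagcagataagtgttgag
The cAMP response half-site TGACGT stood at -66 to -61 in Fos and, on the minus strand, at -8 to -3 in Atf3, and it occurs in 7.51% of 32851 RefSeq promoters of 250 bases before to 50 after a start site. The sequence TGACATCA stood at -45 to -38 in Jun, against 3.62% of promoters. The TATA sequence TATAAA stood at -33 to -28 in Fos and at 1 to 6 in Junb, against 13.6% of promoters. The full cAMP response element TGACGTCA, of which TGACGT is a part (1.79% of promoters), the AP-1 element TGACTCA (5.2%) and the CArG box (1.63%) had no match in the promoter windows of the 7 members found in the RefSeq table. The RefSeq windows of Fosb, Fosl2 and Jund held none of the motifs. Sites outside these windows, 250 bases before to 50 after the start, were not searched. The RefSeq start used lies 34706 bases inside the outer GENCODE start of Atf3, 671 bases inside that of Fosl2 and 1210 bases before that of Jund, so these windows need not be the promoters in use. The RefSeq start of Junb lies 30 bases before its outer GENCODE start. Counted from the GENCODE start, TATAAA in Junb would lie upstream of the transcribed bases.

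Libraries held 129149745 to 180655067 counts. The Dlgap3 gene, the current symbol of Sapap3, stood at 152.9 to 166.6 CPM (counts scaled to a common library size) in KO_hM4D, 156.8 to 163.9 CPM in KO_tdT, 346.5 to 429.6 CPM in WT_hM4D and 294.4 to 437 CPM in WT_tdT, with no overlap between the genotypes. The sexes were not evenly spread. All 4 KO_hM4D libraries held Xist, the female transcript, with summed Y-linked transcripts at most 0.0643% of the highest library, while each other group held a mixture. Xist and Y-linked transcripts both stood above 5% of their highest library in KO_tdT 3, WT_hM4D 2, WT_hM4D 4 and WT_tdT 4, and KO_tdT 4 held Xist with Y-linked transcripts at 4.89%. Of the libraries rich in Y-linked transcripts, Xist stood at 4.18% in WT_hM4D 1, 4.17% in WT_tdT 3, 2.63% in WT_hM4D 3 and 1.32% in WT_tdT 2. It stood at 0% in KO_tdT 1 and KO_tdT 2. Whether each library with both kinds of transcript is 1 mouse cannot be told. Results are given with and without the 4 libraries above 5%, and also without KO_tdT 4. The fits without them still hold libraries with some of both.

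Fos, the prototype of the family, was lower in every library of the other 3 groups than in any WT_tdT library. Its level was 7.95, 9.70, 12.5 and 7.56 CPM in KO_hM4D, 12.3, 9.38, 12.6 and 20.6 CPM in KO_tdT, 15.9, 9.99, 12.7 and 11.96 CPM in WT_hM4D, and 24.8, 38.3, 47.8 and 48.9 CPM in WT_tdT. The highest library outside WT_tdT, KO_tdT 4, came within a few CPM of the lowest WT_tdT library, and all other libraries outside WT_tdT stayed below 16 CPM. The means were 9.43 ± 2.26 CPM in KO_hM4D, 13.7 ± 4.79 CPM in KO_tdT, 12.6 ± 2.45 CPM in WT_hM4D and 39.96 ± 11.2 CPM in WT_tdT (SD, n = 4 each). Whether fewer cells transcribed Fos or each held less Fos RNA cannot be told apart in bulk tissue.

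Fosb, whose truncated splice form ΔFosB accumulates in striatal neurons after repeated stimulation, spread far less between groups. It stood at 7.54, 9.41, 8.78 and 9.12 CPM in KO_hM4D, 10.4, 12.3, 7.30 and 12.2 CPM in KO_tdT, 10.7, 10.4, 11.4 and 8.86 CPM in WT_hM4D, and 10.4, 12.8, 12.98 and 17.9 CPM in WT_tdT. The KO_hM4D libraries lay below all WT_tdT libraries, while KO_tdT and WT_hM4D overlapped WT_tdT. Counts per gene do not separate the splice forms. Fosl2, a Fos relative also known as Fra-2, had 24.4, 28.1, 31.7 and 31.5 CPM in KO_hM4D, 31.0, 37.2, 21.9 and 45.0 CPM in KO_tdT, 33.3, 35.0, 36.9 and 26.3 CPM in WT_hM4D, and 33.5, 34.5, 38.8 and 58.3 CPM in WT_tdT. Fosl2 had the same arrangement as Fosb, with only KO_hM4D wholly below WT_tdT. For both genes WT_tdT 4 was the highest library of all 16 and KO_tdT 3 the lowest, and both of those libraries carried mixed sex transcripts. Fosl1 (Fra-1) was barely detected, with 0, 5, 0 and 4 counts in KO_hM4D, 0, 3, 2 and 1 counts in KO_tdT, 3, 1, 1 and 5 counts in WT_hM4D and 2, 2, 2 and 0 counts in WT_tdT. It failed the filter on low counts, so 7 of the 8 members were tested and no difference in Fosl1 was detectable. Fosl1 overlaps Ccdc85b on the opposite strand by 2767 bases. Ccdc85b stood at 15.8 to 22 CPM in KO_hM4D, 16.6 to 22.6 CPM in KO_tdT, 16 to 20.6 CPM in WT_hM4D and 15.4 to 19.8 CPM in WT_tdT. Whether this overlap lowered the counts of Fosl1 was not tested.

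Junb, a Jun protein that rises with neuronal activity, followed Fos. Its level was 31.3, 36.4, 33.7 and 30.8 CPM in KO_hM4D, 33.5, 32.1, 34.3 and 70.7 CPM in KO_tdT, 46.1, 37.0, 37.6 and 39.5 CPM in WT_hM4D, and 76.6, 83.9, 90.1 and 113 CPM in WT_tdT. All WT_tdT libraries lay above all others, and KO_tdT 4 stood alone in its group, close to WT_tdT. The means were 33.0 ± 2.55 CPM in KO_hM4D, 42.6 ± 18.7 CPM in KO_tdT, 40.04 ± 4.19 CPM in WT_hM4D and 90.9 ± 15.8 CPM in WT_tdT (SD, n = 4 each). Junb overlaps Prdx2 on the opposite strand by 351 bases, and Prdx2 itself stood at 135 to 150 CPM in KO_hM4D, 135 to 152 CPM in KO_tdT, 137 to 155 CPM in WT_hM4D and 138 to 141 CPM in WT_tdT.

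Jun and Jund did not separate the groups. Jun, the founding Jun protein and a target of the JNK kinases, had 37.2, 43.3, 35.0 and 39.2 CPM in KO_hM4D, 32.2, 39.99, 32.3 and 33.2 CPM in KO_tdT, 33.0, 40.3, 28.6 and 25.9 CPM in WT_hM4D, and 27.8, 35.1, 34.3 and 38.5 CPM in WT_tdT. Jund, the steadily expressed member, had 66.6, 71.6, 61.3 and 68.5 CPM in KO_hM4D, 65.1, 75.8, 67.5 and 79.4 CPM in KO_tdT, 72.6, 77.5, 65.3 and 61.5 CPM in WT_hM4D, and 65.1, 75.1, 69.0 and 71.3 CPM in WT_tdT. All groups overlapped for both genes. Jun and Jund each have a single exon and an overlapping antisense transcript, Junos at 0.337 to 0.612 CPM for Jun and Gm11175 for Jund.

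Atf3, a stress-induced bZIP factor that pairs with Jun proteins and is often a repressor, was scarce. Its level was 0.487, 0.316, 0.571 and 0.480 CPM in KO_hM4D, 0.410, 0.843, 0.457 and 0.668 CPM in KO_tdT, 0.722, 0.589, 0.583 and 0.475 CPM in WT_hM4D, and 0.962, 1.01, 0.709 and 1.60 CPM in WT_tdT. KO_hM4D lay wholly below WT_tdT, while KO_tdT 2 and WT_hM4D 1 reached into the WT_tdT range.

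**Figure D1:**
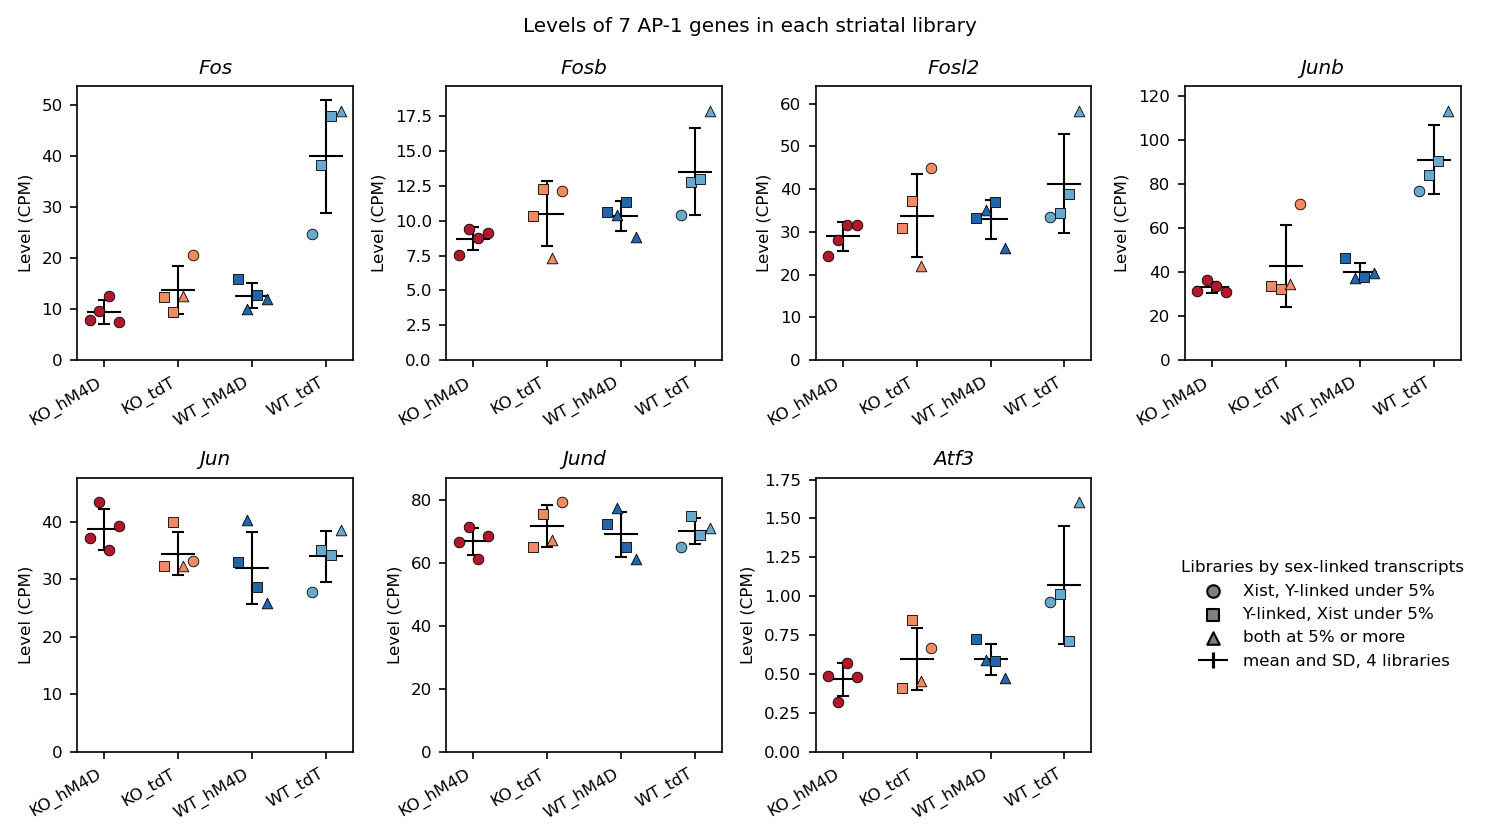
Levels of the 7 tested genes in CPM on linear axes that start at 0, by group, with each library as a point (circle, square or triangle by its sex-linked transcripts) and the mean ± SD of 4 libraries as a bar. For Fos and Junb all 4 WT_tdT libraries lie above every other library, and the single high KO_tdT point is library 4, with 20.6 CPM of Fos and 70.7 CPM of Junb.

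The spread among libraries of the same group differed between members. The within-group SD of log2 CPM was 0.40 for Atf3, 0.39 for Fos, 0.32 for Fosl2, 0.31 for Junb, 0.26 for Fosb, 0.20 for Jun and 0.12 for Jund. Of all 20825 genes tested, 82.2% had a smaller SD than Atf3, 81.5% a smaller SD than Fos and 36.2% a smaller SD than Jund.

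The comparisons against WT_tdT ask what the knockout, the receptor with its agonist, or both together change, and they share the WT_tdT libraries. In KO_tdT against WT_tdT the log2 change (with its standard error, SE) was -1.54 (0.25) for Fos, -1.09 (0.20) for Junb, -0.84 (0.26) for Atf3, -0.36 (0.16) for Fosb, -0.29 (0.20) for Fosl2, 0.02 (0.13) for Jun and 0.04 (0.08) for Jund. With edgeR's quasi-likelihood test at an adjusted p under 0.05, 1 of the 7 members tested, Fos, was called lower, beside 0.0384% of all genes. The libraries of 2 members, Fos and Junb, did not overlap, beside 2.04% of all genes lower without overlap. The family's median log2 change was -0.36, with -0.00 over all genes.

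In WT_hM4D against WT_tdT the changes were nearly those of the knockout. The log2 change was -1.66 (0.25) for Fos, -1.18 (0.20) for Junb, -0.85 (0.26) for Atf3, -0.39 (0.16) for Fosb, -0.33 (0.20) for Fosl2, -0.09 (0.13) for Jun and -0.02 (0.08) for Jund. Fos and Junb, 2 of 7 members, were called lower by edgeR, beside 0.0384% of all genes, and the libraries of the same 2 did not overlap, beside 3.19% of all genes. The family's median was -0.39, with 0.00 over all genes.

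In KO_hM4D against WT_tdT the log2 change was -2.08 (0.25) for Fos, -1.46 (0.20) for Junb, -1.20 (0.27) for Atf3, -0.63 (0.16) for Fosb, -0.51 (0.20) for Fosl2, 0.19 (0.12) for Jun and -0.07 (0.08) for Jund. Fos, Junb and Atf3, 3 of 7 members, were called lower by edgeR, beside 1.01% of all genes. The libraries of 5 members, Fos, Fosb, Fosl2, Junb and Atf3, did not overlap, beside 7.09% of all genes. The family's median was -0.63, with -0.00 over all genes. In all 3 comparisons the order of the members was the same, from Fos through Junb, Atf3 and Fosb to Fosl2, with Jun and Jund near 0.

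**Figure D2:**
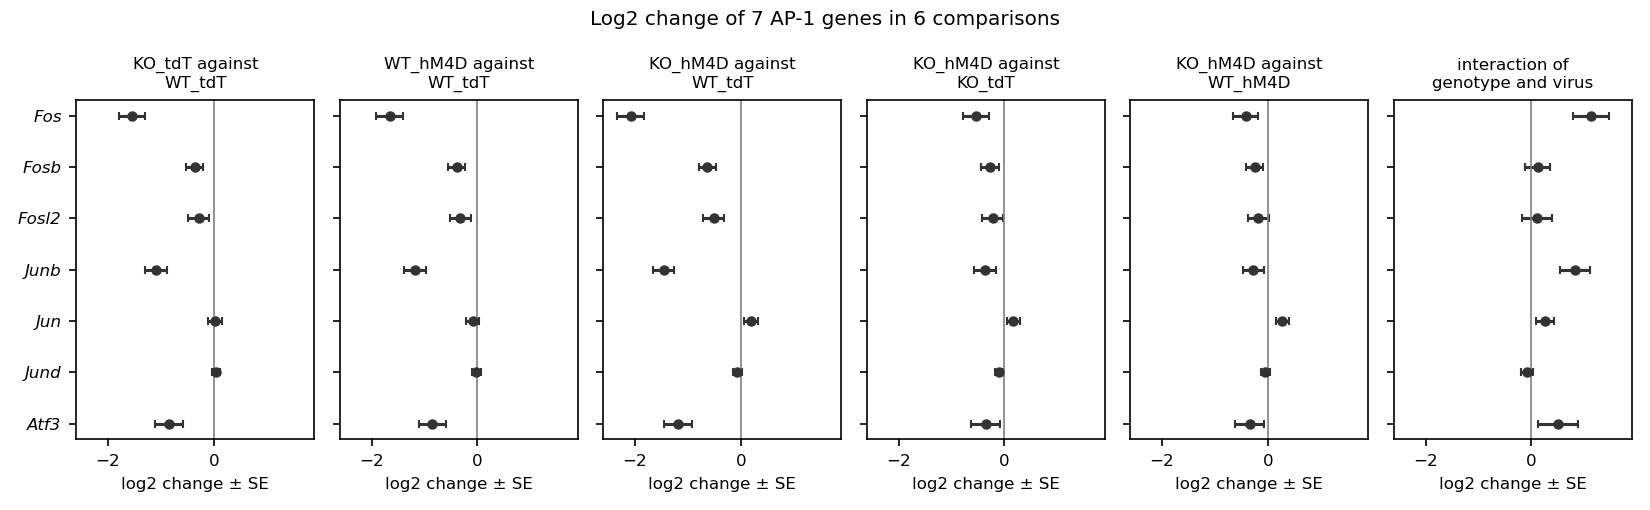
Log2 change of the 7 tested genes as points with bars of 1 SE, in 5 comparisons of groups and in the interaction. Fos and Junb lie farthest below 0 in the comparisons against WT_tdT, at -2.08 and -1.46 in KO_hM4D, and in these comparisons Jun and Jund lie between -0.09 and 0.19.

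The comparisons against WT_tdT depended on single libraries for their calls, but not for the direction of Fos and Junb. In KO_tdT against WT_tdT the count of members called was 2 without KO_tdT 4, where Junb was at -1.45 (SE 0.11). That count was 0 without any 1 of KO_hM4D 2, KO_tdT 1, 2 or 3, WT_hM4D 3 or 4, or WT_tdT 2, 3 or 4. In WT_hM4D against WT_tdT it was 0 without WT_hM4D 3 or 4 or WT_tdT 3 or 4, and 1 without KO_hM4D 1 or 4, WT_hM4D 1 or 2, or WT_tdT 1 or 2. In KO_hM4D against WT_tdT it was 2 without KO_hM4D 1, 2 or 4, WT_hM4D 3 or any WT_tdT library, and 4 without KO_tdT 2, 3 or 4. Over 26 alternative settings the log2 change of Fos lay between -1.80 and -1.39 in KO_tdT, between -1.84 and -1.37 in WT_hM4D and between -2.26 and -1.97 in KO_hM4D, each against WT_tdT.

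Sex transcripts moved with the groups, since every KO_hM4D library was of the Xist kind. Among libraries with Xist and few Y-linked transcripts, Fos stood at 7.56 to 12.5 CPM in KO_hM4D, 20.6 CPM in KO_tdT 4 and 24.8 CPM in WT_tdT 1. Among libraries with Y-linked transcripts and little Xist, Fos stood at 9.38 to 12.3 CPM in KO_tdT, 12.7 to 15.9 CPM in WT_hM4D and 38.3 to 47.8 CPM in WT_tdT (2 libraries each). Among those with both, it stood at 12.6 CPM in KO_tdT, 9.99 to 11.96 CPM in WT_hM4D and 48.9 CPM in WT_tdT. Junb in the libraries with Y-linked transcripts and little Xist stood at 32.1 to 33.5 CPM in KO_tdT, 37.6 to 46.1 CPM in WT_hM4D and 83.9 to 90.1 CPM in WT_tdT. With Xist and few Y-linked transcripts, Junb stood at 30.8 to 36.4 CPM in KO_hM4D, 70.7 CPM in KO_tdT 4 and 76.6 CPM in WT_tdT 1. With both, it stood at 34.3 CPM in KO_tdT, 37.0 to 39.5 CPM in WT_hM4D and 113 CPM in WT_tdT. WT_tdT was the highest group in each kind for both genes, but it had 1 library in the Xist kind and 1 in the kind with both. The part of sex in these differences was not tested.

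Without the 4 libraries of mixed sex transcripts, Fos was at -1.97 in KO_hM4D, -1.39 in KO_tdT and -1.38 in WT_hM4D against WT_tdT, and Junb at -1.34, -0.88 and -1.01 in the same order. The members called were then 2, 0 and 0. Without KO_tdT 4 as well, the log2 changes of Fos were -1.97, -1.77 and -1.37, those of Junb -1.34, -1.35 and -0.9995, and 3, 2 and 1 members were called. Fosb and Fosl2 in KO_tdT against WT_tdT were at -0.06 and 0.09 without the 4 libraries, against -0.36 and -0.29 with all libraries. With the Y-linked level as a covariate, chosen after seeing the data, Fos was at -2.14, -1.55 and -1.64 against WT_tdT.

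Markers of striatal projection neurons, the main neuron type of this tissue, also tended to be lower outside WT_tdT. Their summed level was 4846 to 6321 CPM in KO_hM4D, 5003 to 8618 CPM in KO_tdT, 4994 to 8071 CPM in WT_hM4D and 5151 to 8594 CPM in WT_tdT, with none of the 14 markers at 0 in any group. Of the 14 markers, 14 were negative in KO_hM4D, 13 in KO_tdT and 12 in WT_hM4D against WT_tdT, and none passed the test. All 14 were also negative in KO_hM4D against KO_tdT and against WT_hM4D. KO_tdT 4, the library of high Fos and Junb, had the 8618 CPM, against 5003 to 5392 CPM in the other KO_tdT libraries. Within WT_tdT, WT_tdT 1 had the most marker RNA (8594 CPM) and the least Fos (24.8 CPM). WT_tdT 2 had 7453 CPM of markers and 38.3 CPM of Fos, and WT_tdT 4 had 7063 CPM of markers and 48.9 CPM of Fos. WT_tdT 3 had the least marker RNA (5151 CPM) with 47.8 CPM of Fos. With the marker level as a covariate, chosen after seeing the data, Fos was at -1.98 in KO_hM4D, -1.51 in KO_tdT and -1.65 in WT_hM4D against WT_tdT, and Junb at -1.26, -1.03 and -1.13. Markers of thalamic, septal and pallidal neurons, which lie next to the striatum, summed to 188.9 to 456.6 CPM in KO_hM4D, 197.2 to 485.3 CPM in KO_tdT, 184.1 to 199.2 CPM in WT_hM4D and 167.1 to 193.8 CPM in WT_tdT, and 10, 10 and 8 of their 10 markers were positive in KO_hM4D, KO_tdT and WT_hM4D against WT_tdT. Oligodendrocyte markers summed to 5328 to 7784 CPM in KO_hM4D, 4583 to 10590 CPM in KO_tdT, 5936 to 9844 CPM in WT_hM4D and 6309 to 8989 CPM in WT_tdT, with 8, 7 and 3 of 8 negative against WT_tdT. Markers of cortical excitatory neurons summed to 899.6 to 1299 CPM in KO_hM4D, 575.5 to 1270 CPM in KO_tdT, 699.9 to 1260 CPM in WT_hM4D and 706.1 to 1228 CPM in WT_tdT, with 8, 4 and 0 of 8 positive. KO_tdT 4 had the 10590 CPM of oligodendrocyte markers, against 4583 to 6640 CPM in the other KO_tdT libraries, and the 575.5 CPM of cortical markers, against 1001 to 1270 CPM. Against WT_tdT, astrocyte markers were positive in 6, 8 and 8 of 10 in KO_hM4D, KO_tdT and WT_hM4D. Microglia markers were positive in 8, 2 and 9 of 10, and none was called. Called in KO_hM4D against WT_tdT were 3 of 10 astrocyte, 1 of 10 endothelial and mural and 1 of 5 lymphocyte markers, beside 1.95% of all genes. In WT_hM4D 1 of 10 astrocyte markers was called, beside 0.0864% of all genes. The part of any of these markers in the differences of Fos and Junb was not tested, and the covariate fit is a description.

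Whether the receptor changed the family in knockouts, and whether the knockout changed it in mice with the receptor, were tested without WT_tdT. The family was chosen with its low levels outside WT_tdT known, so a lack of calls among these groups is not independent of that choice. In KO_hM4D against KO_tdT none of the 7 members was called by edgeR or by DESeq2, beside 0.0048% of all genes with edgeR, and 1 had an unadjusted p under 0.05, beside 11.1% of all genes. That was Fos, with a log2 change of -0.54 (SE 0.24, 95% interval -1.06 to -0.02, edgeR adjusted p = 0.435), and the libraries of the groups overlapped, as for all 7 members, where 2.55% of all genes were lower without overlap. Junb was at -0.37 (interval -0.79 to 0.06, edgeR adjusted p = 0.508) and Atf3 at -0.35 (interval -0.93 to 0.22, edgeR adjusted p = 0.632). Fosb was at -0.27 (interval -0.62 to 0.07), Fosl2 at -0.22 (interval -0.64 to 0.20), Jund at -0.10 (interval -0.27 to 0.07) and Jun at 0.17 (interval -0.10 to 0.43). Several of these values rested on KO_tdT 4, since without it Fos was at -0.28, Junb at -0.01, Fosl2 at -0.05 and Jund at -0.05. Without KO_tdT 2 Atf3 was at -0.13, and without KO_hM4D 2 it was at -0.21. Without the 4 libraries of mixed sex transcripts Fos was at -0.58, Junb at -0.46, Atf3 at -0.46, Fosb at -0.42 and Fosl2 at -0.39, the shift of Fosb and Fosl2 being that of leaving out KO_tdT 3 alone (-0.41 and -0.38). Without those and KO_tdT 4 they were at -0.20, 0.0098, -0.43, -0.38 and -0.24, and no member was called in any of these fits.

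In KO_hM4D against WT_hM4D none of the 7 members was called by edgeR or by DESeq2, beside 0.0192% of all genes with edgeR, and 1 had an unadjusted p under 0.05, beside 12.7% of all genes. That was Jun, at 0.28 (SE 0.13, 95% interval 0.01 to 0.54, edgeR adjusted p = 0.377). Fos was at -0.42 (interval -0.94 to 0.09, edgeR adjusted p = 0.476). Junb was at -0.28 (interval -0.70 to 0.15, edgeR adjusted p = 0.571), with all KO_hM4D libraries below all WT_hM4D libraries, beside 3.37% of all genes lower without overlap. Fosb at -0.25, Fosl2 at -0.18, Jund at -0.05 and Atf3 at -0.34 had overlapping libraries. Every KO_hM4D library was of the Xist kind, and with the Y-linked level as a covariate Jun was at 0.42, Junb at -0.53 and Fos at -0.49. With the projection neuron level as a covariate they were at 0.22, -0.13 and -0.33. Without the 4 libraries of mixed sex transcripts they were at 0.34, -0.33 and -0.59, and Fosl2 was at -0.27. With 1 library left out Atf3 came to -0.20 without KO_hM4D 2, and Fosl2 to -0.11 without KO_hM4D 1 and -0.28 without WT_hM4D 4. No member was called in any of these fits. KO_hM4D was thus not told apart from KO_tdT or from WT_hM4D in any member at the adjusted threshold, and the intervals give the differences that remain possible.

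The interaction of genotype and virus is the change with both minus the sum of the separate changes, each against WT_tdT. It counts as used in choosing the family, so its values are descriptions and nothing is read from its calls. It was 1.12 (SE 0.34) for Fos, 0.82 (SE 0.28) for Junb, 0.50 for Atf3, 0.25 for Jun, 0.12 for Fosb, 0.10 for Fosl2 and -0.08 for Jund on the log2 scale. None of the 7 members was called by edgeR or by DESeq2, beside 0% of all genes, and 2 had an unadjusted p under 0.05, beside 6.77% of all genes. Without KO_tdT 4, Junb alone was called, with an interaction of 1.17 (SE 0.15). Without the 4 libraries of mixed sex transcripts the interaction was -0.27 for Fosb, -0.36 for Fosl2 and -0.00058 for Atf3, and the interactions of Fosb and Fosl2 also changed sign without KO_tdT 3 or without WT_tdT 4.

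Levels were also divided by the merged exon length of each gene, so that members can be set beside each other. Summed over the family, this gave 75.3 ± 3.98 CPM per kb in KO_hM4D, 83.7 ± 14.2 CPM per kb in KO_tdT, 79.6 ± 7.10 CPM per kb in WT_hM4D and 116 ± 15.2 CPM per kb in WT_tdT (SD, n = 4 each). Fos made up 5.34 ± 1.37% of that sum in KO_hM4D, 6.88 ± 1.47% in KO_tdT, 6.77 ± 1.23% in WT_hM4D and 14.4 ± 2.69% in WT_tdT. Junb made up 19.1 ± 0.987%, 21.5 ± 5.45% and 21.9 ± 2.24% in KO_hM4D, KO_tdT and WT_hM4D, and 33.9 ± 2.03% in WT_tdT. Jund, whose own level hardly differed, was the largest share in each group, at 53.4 ± 2.06% in KO_hM4D, 52.0 ± 4.40% in KO_tdT, 52.1 ± 1.80% in WT_hM4D and 36.6 ± 3.86% in WT_tdT. These shares are of RNA and say nothing of which dimers formed.

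**Figure D3:**
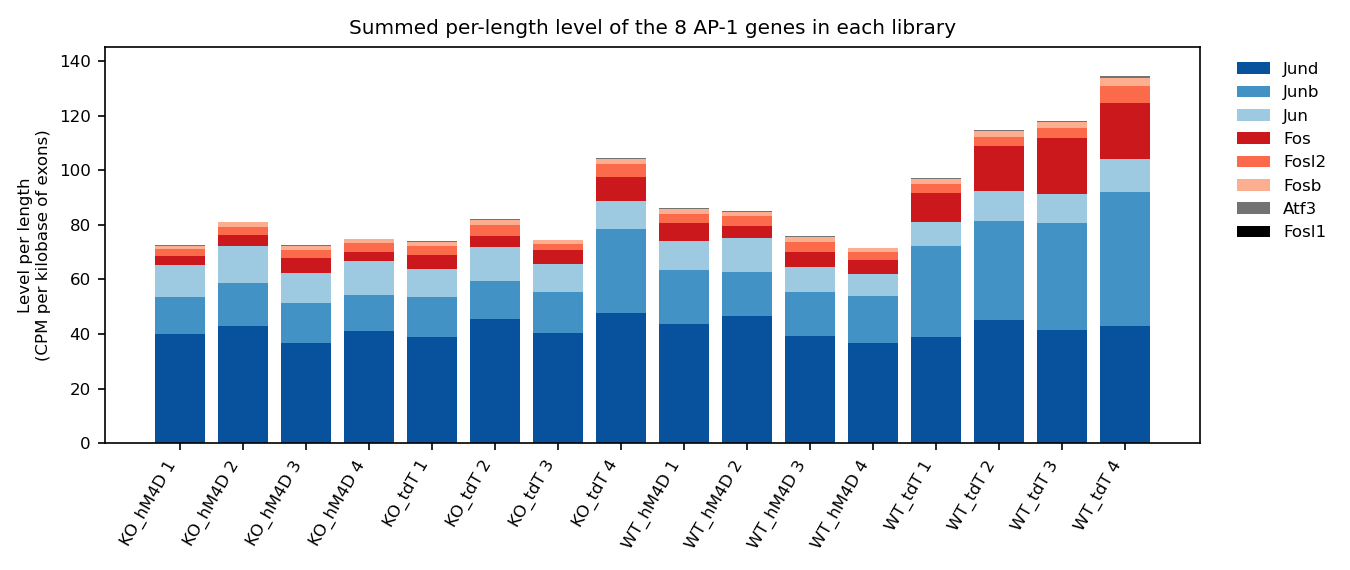
Level of each family member per kb of merged exon (CPM per kb) in each of the 16 libraries, stacked on an axis that starts at 0. The WT_tdT bars, at 97.2 to 134 CPM per kb, are taller through their Fos and Junb layers, while the Jund layer has about the same height in all libraries.

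The genes whose pattern over the 16 libraries was most like that of each member were found by the root mean square (RMS) difference of centred log2 CPM, a description over the 13964 genes whose mean reached 1 CPM. Fos was nearest to Junb (0.306), Cyr61 (0.317) and Egr2 (0.346), where the median gene lay at 0.863. Junb was nearest to Cyr61 (0.238), Nr4a1 (0.248) and Egr4 (0.258), with the median gene at 0.635. Fosb and Fosl2 were each other's nearest gene (0.114), followed by Egr1 (0.185) and Sik1 (0.191) for Fosb and by Nr4a3 (0.155) and Sik1 (0.202) for Fosl2. Jun was nearest to Kif21b, Pacsin1 and Gnaz (0.111 to 0.12), and Jund to Tpgs1, Edf1 and Med25 (0.0424 to 0.0587). The libraries share their group structure and their cell make-up, so likeness here is not evidence of common control.

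Of 30 other immediate early genes, 26 were lower in KO_hM4D, 24 in KO_tdT and 26 in WT_hM4D against WT_tdT by the sign of their log2 change, beside 50.3%, 50.1% and 49.7% of all genes, with medians of -0.56, -0.49 and -0.47. Called lower by edgeR were 12, 3 and 4 of the 30, beside 1.01%, 0.0384% and 0.0384% of all genes, and none higher. The list was chosen with earlier results of these data known and was compared with the same WT_tdT libraries, so these counts are descriptions. Btg2, an antiproliferative gene, was at -1.26, -1.34 and -1.17, and Cyr61, a secreted matrix protein, at -1.40, -1.19 and -1.22, both called in all 3 comparisons. Egr2, a zinc finger factor, was called in KO_hM4D at -2.32 (SE 0.39), with a level of 4.00 ± 0.671 CPM in KO_hM4D and 20.0 ± 7.45 CPM in WT_tdT. Gadd45b, a stress gene, was called at -0.58 in KO_hM4D and -0.60 in WT_hM4D, Apold1 at -1.01 in KO_hM4D and -1.05 in WT_hM4D, and Csrnp1 at -0.40 in KO_hM4D and -0.63 in KO_tdT. With 1 library left out, the count was 2 to 15 in KO_hM4D, low without KO_hM4D 1, 2 or 4 or any WT_tdT library. It was 1 to 12 in KO_tdT, low without KO_tdT 2 or 3 or WT_tdT 3 and 12 without KO_tdT 4. It was 1 to 9 in WT_hM4D, low without WT_hM4D 3 or WT_tdT 3 or 4 and high without KO_tdT 2 or 4. Without the 4 libraries of mixed sex transcripts the count was 2 in KO_hM4D, 0 in KO_tdT and 0 in WT_hM4D. Without those and KO_tdT 4 it was 12, 8 and 3, and with DESeq2 it was 17, 8 and 12. Among the groups outside WT_tdT none of the 30 was called by edgeR or DESeq2. Negative were 18 of 30 in KO_hM4D against KO_tdT (beside 49.5% of all genes, median -0.05) and 16 in KO_hM4D against WT_hM4D (beside 52.5%, median -0.01). In these comparisons 2 and 1 of the 30 had an unadjusted p under 0.05, beside 11.1% and 12.7% of all genes.

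**Figure D4:**
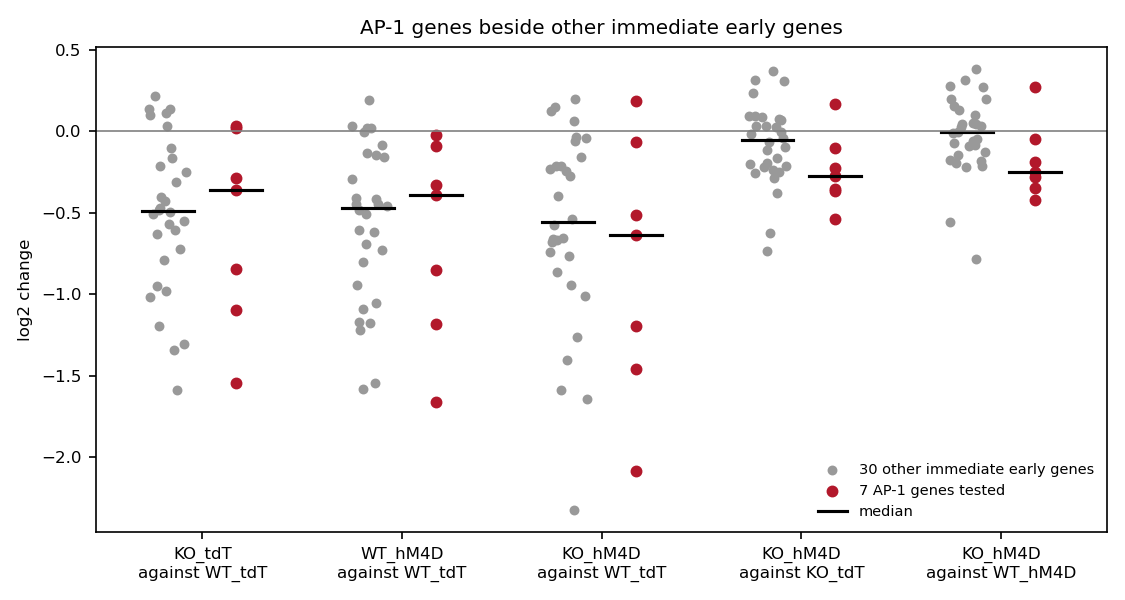
Log2 change of the 7 tested family members and of 30 other immediate early genes in each pairwise comparison, 1 point per gene. In the comparisons against WT_tdT most points lie below 0, with medians of the 30 genes between -0.56 and -0.47, and in the other comparisons the medians are -0.05 and -0.01.

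Of 32 kinases, phosphatases and transcription factors upstream of the family, 1 was called. Called lower against WT_tdT were 1.01% of all genes in KO_hM4D, 0.0384% in KO_tdT and 0.0384% in WT_hM4D. Dusp1, a phosphatase that inactivates MAP kinases and is itself an immediate early gene, was lower in KO_hM4D at -0.93 (SE 0.13), in KO_tdT at -0.94 (SE 0.13) and in WT_hM4D at -1.02 (SE 0.13) against WT_tdT. Its level was 10.4 ± 1.55 CPM in KO_hM4D, 10.3 ± 1.80 CPM in KO_tdT, 9.69 ± 0.601 CPM in WT_hM4D and 19.7 ± 3.06 CPM in WT_tdT (SD, n = 4 each), and its call in KO_tdT was lost without KO_tdT 2, KO_tdT 3, WT_tdT 3 or WT_tdT 4. Of 25 other bZIP factors, which include partners of the family, none was called by edgeR in any comparison. DESeq2, or edgeR without KO_tdT 1, 2 or 4, called 1 in KO_hM4D against WT_tdT. Over 26 alternative settings the count was 0 to 4 in KO_hM4D and 0 to 1 in WT_hM4D against WT_tdT. Positive in KO_hM4D against WT_tdT were 17 of 25 (median 0.12), beside 49.7% of all genes. Of the 25, 6 had an unadjusted p under 0.05 in that comparison, beside 20.5% of all genes. The bZIP factor with the smallest p there was Mafg, at 0.29 (SE 0.07, edgeR adjusted p = 0.0524).

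Of 18 genes reported as AP-1 targets 17 were tested. An unadjusted edgeR p under 0.05 was found for 6, 1 and 2 of the 17 in KO_hM4D, KO_tdT and WT_hM4D against WT_tdT. The shares of all genes were 20.5%, 8.69% and 11.1%. In KO_hM4D, KO_tdT and WT_hM4D against WT_tdT 11, 9 and 12 were positive, beside 49.7%, 49.9% and 50.3% of all genes, with medians of 0.07, 0.03 and 0.03. In these comparisons Timp1, an inhibitor of matrix metalloproteinases, was the one gene called, and it was higher: its log2 change was 2.30 (SE 0.37, edgeR adjusted p = 0.0142) in KO_hM4D and 2.50 (SE 0.37, edgeR adjusted p = 0.0107) in WT_hM4D against WT_tdT, with levels of 0.362 ± 0.135 CPM in KO_hM4D, 0.146 ± 0.0663 CPM in KO_tdT, 0.419 ± 0.0907 CPM in WT_hM4D and 0.0725 ± 0.0336 CPM in WT_tdT. Called higher by edgeR against WT_tdT were 0.946% of all genes in KO_hM4D and 0.048% in WT_hM4D. The call of Timp1 was lost without WT_tdT 2 in KO_hM4D and without WT_tdT 4 in WT_hM4D, and in both without the 4 libraries of mixed sex transcripts.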

How the data were processed

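RNA was extracted from brain tissue with a column kit, depleted of ribosomal RNA and made into stranded libraries, per the labels' protocols. Read files were made with bcl2fastq 2.17, aligned with STAR and counted with HTSeq, with GRCm38 and mm10 named as builds, per the submitters' processing notes. No source used here states the aligner's or counter's version, the gene annotation or whether counting used strand, so genes that overlap on opposite strands are uncertain. The authors deposited raw read counts, whole and unnormalized, for each gene, with 0 entries that name no gene. For 3 WT_hM4D libraries the source label names KO, while title and genotype, which were followed, say WT.

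The members and gene lists were chosen with earlier results of these data known. The counts went into edgeR 4.0.16 (R 4.3.3): filterByExpr left 20825 genes, libraries were scaled by TMM, and the 4 group means were estimated jointly from the 16 libraries in a quasi-likelihood fit (12 residual degrees of freedom). Two-sided p-values were adjusted by Benjamini-Hochberg over the genes tested, and calls are those with an adjusted p under 0.05. The SE is the log2 change divided by the square root of F. Comparisons against WT_tdT and the interaction count as used in choosing the family. The labels state 4 mice per group. No 2 libraries of a group were copies: over 24 pairs, chi-square divided by its degrees of freedom was 12.3 to 138. Depth was 129149745 to 180655067 counts per library, and counting error weighs on Fosl1 and, with 44 to 212 counts per library, on Atf3. Counting error also weighs on Timp1, which stood at 0.038 to 0.117 CPM in WT_tdT. Named from the lists were genes called, up to 5 by smallest p, or up to 3 of smallest p where none was called, of which a few are given. Likeness used log2 CPM with a prior count of 2. Coordinates and exon lengths came from GENCODE M21, promoters from RefSeq. The model was tested on simulated data. Alternatives were other scalings, no filter, DESeq2 1.42.0, a fit of only the groups compared, a replicate block, and libraries left out.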

Additional observations from a re-analysis of the deposited data

Results flagged for a closer look

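Each member was examined in each group for a library whose gap to its neighbour took up an unusual part of the group's range (Dixon's ratio above its 95% critical value). Of 32 combinations of a member and a group 3 stood out, where chance gives about 1 in 20. The combinations share libraries and are not independent. Junb in KO_tdT had its high library in KO_tdT 4, at 70.7 CPM against 34.3 CPM for the next one (ratio 0.943). Jun in KO_tdT had its high library in KO_tdT 2, at 39.99 CPM against 33.2 CPM for the next one (ratio 0.878). Fosl1 in WT_tdT had its low library in WT_tdT 4, at 0 CPM against 0.0112 CPM for the next one (ratio 0.849), a difference of 2 counts.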

How the results depend on the processing

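The members called numbered 1 in KO_tdT, 2 in WT_hM4D and 3 in KO_hM4D against WT_tdT, and 0 in the interaction, in KO_hM4D against KO_tdT and in KO_hM4D against WT_hM4D. Other scalings left them as they were. In KO_tdT against WT_tdT the count was 2 without a filter, 2 with DESeq2, 0 with only the groups compared, 0 without the 4 libraries of mixed sex transcripts, 2 without those and KO_tdT 4, 2 with the Y-linked covariate and 2 with the projection neuron covariate. In WT_hM4D against WT_tdT it was 0 without the 4 libraries and 1 without those and KO_tdT 4. In KO_hM4D against WT_tdT it was 4 with DESeq2 and with only the groups compared, and 2 without the 4 libraries and with the projection neuron covariate, where Atf3 was no longer called. Leaving out 1 library gave 0 to 2, 0 to 2, 2 to 4 and, in the interaction, 0 to 1. The covariates were chosen after seeing the data. Not divided by length, Junb made up 17.7% of the family in KO_hM4D and 31.2% in WT_tdT, and Jund 35.99% in KO_hM4D, 35.1% in KO_tdT, 35.0% in WT_hM4D and 24.5% in WT_tdT. Of 1085 values of single members tried, 21 changed sign, 10 of them of Jun or Jund and none of Fos. The direction reversed for Junb in KO_hM4D against KO_tdT (0.0098 without the 4 libraries and KO_tdT 4) and for Jund in KO_hM4D against WT_hM4D (0.00083 with the Y-linked covariate, and -0.099 to 0.012 over fits without 1 library, the highest without WT_hM4D 2). Without the 4 libraries it also reversed for Fosl2 in KO_tdT against WT_tdT (0.09) and for the interactions of Fosb (-0.27), Fosl2 (-0.36) and Atf3 (-0.00058). The cause was not tested.

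Same-numbered libraries did not deviate together: over 24 pairs the correlation of deviations from the group means ran from -0.223 to 0.287, with a median of -0.00431, and 3 of 16 libraries correlated best with their own number. With the replicate number as a block 1, 2 and 2 members were called in KO_tdT, WT_hM4D and KO_hM4D against WT_tdT, and 0 elsewhere. Low counts limit Fosl1 and Timp1, and Atf3 had 44 to 212 counts per library, where counting error adds to the spread.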
